A study of Mus musculus with 4 samples.

Results

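Prostaglandin and leukotriene genes were followed in γδ T cells sorted from mouse lung, as 10 enzymes and receptors out of 22865 genes in the count table. They are the cyclooxygenases Ptgs1 and Ptgs2, the terminal synthase Ptges, the prostaglandin E2 receptors Ptger2 and Ptger4, the leukotriene enzymes Alox5, Alox5ap and Lta4h, and the cysteinyl leukotriene receptors Cysltr1 and Cysltr2. The set is a list of gene symbols covering both pathways, and it was chosen with the counts of these same libraries, Aire-/- against Aire+/+, already known. The difference between genotypes in these 10 genes is therefore given as a description. Counts of genes past a threshold stand beside the same share over all genes and support nothing, and no p-value is printed for any of the 10.

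The mice were female C57Bl/6 animals, 10 weeks old, either Aire-/-, lacking the regulator that lets thymic epithelium display tissue proteins to developing T cells, or Aire+/+. The sort kept viable cells with CD45 and a γδ receptor that lacked TCRβ, CD27 and the chains Vg1, Vg2, Vg4 and Vg5. Each genotype has 2 libraries, each made from 500 sorted cells with Smart-Seq2, which amplifies whole cDNA from few cells. Nothing in the labels says that the libraries come from separate animals, or whether animals were pooled, so the spread between them may be technical. The Aire-/- libraries differed by a chi-square of 4.10 per degree of freedom and the Aire+/+ libraries by 4.00, more than counting error alone gives. Across genotypes, Aire-/- replicate 1 and Aire+/+ replicate 2 were closer, at 3.72. The remaining pairs of unlike genotype stood at 4.47, 4.99 and 5.66, above both values within a genotype.

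Both pathways start from arachidonic acid cut out of membranes. Cyclooxygenases turn it into prostaglandin H2, which synthases such as the product of Ptges convert to prostaglandin E2. That lipid acts on T cells mainly through EP2 and EP4, receptors that raise cyclic AMP, and is known to favour interleukin-17 production by helper T cells. In the other pathway 5-lipoxygenase, helped by its activating protein, makes leukotriene A4, from which come leukotriene B4, an attractant of leukocytes, and the cysteinyl leukotrienes of allergic inflammation.

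Ptgs2, Ptger2 and Cysltr2 were the tested genes of the set that stood higher in both Aire-/- samples than in either Aire+/+ sample, and the sequence around their start sites is shown for that reason. RefSeq start-site windows of GRCm38.p6, from 250 bases before to 50 after the start, matched 8 of the 10 genes, all but Alox5ap and Cysltr1. For Ptger2 the window ends at 44988160, before the gene span given below begins at 44988195. That span is from another annotation, so the start site of Ptger2 depends on the annotation used. Capitals mark every match to the motifs searched on both strands.
Ptgs2 (chr1:150099781-150100080, plus strand): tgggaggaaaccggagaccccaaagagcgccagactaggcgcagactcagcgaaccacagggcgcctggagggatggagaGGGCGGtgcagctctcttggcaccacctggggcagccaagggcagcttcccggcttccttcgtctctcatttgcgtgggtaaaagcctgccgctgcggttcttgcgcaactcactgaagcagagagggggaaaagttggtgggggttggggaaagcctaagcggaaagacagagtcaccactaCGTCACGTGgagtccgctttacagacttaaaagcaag
Ptger2 (chr14:44987861-44988160, plus strand): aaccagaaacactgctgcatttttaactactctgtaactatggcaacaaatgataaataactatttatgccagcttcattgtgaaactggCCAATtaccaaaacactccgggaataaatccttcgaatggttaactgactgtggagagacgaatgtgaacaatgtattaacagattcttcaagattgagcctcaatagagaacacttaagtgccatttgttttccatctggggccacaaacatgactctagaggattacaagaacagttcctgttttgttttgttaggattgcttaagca
Cysltr2 (chr14:73049065-73049364, minus strand): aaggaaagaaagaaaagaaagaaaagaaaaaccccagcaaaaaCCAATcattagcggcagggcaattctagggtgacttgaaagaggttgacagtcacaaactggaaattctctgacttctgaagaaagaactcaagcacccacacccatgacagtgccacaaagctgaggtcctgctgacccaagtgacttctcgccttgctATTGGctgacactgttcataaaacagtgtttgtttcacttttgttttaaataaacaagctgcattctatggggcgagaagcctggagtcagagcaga

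In the Ptgs2 window a short cyclic AMP response motif (TGACG, read as CGTCA on this strand) began at base 14, counting the RefSeq start as base 1, and ran into an E-box (CACGTG) that began at base 17, so that the matches overlap. A joint element of these letters is known as a control site of mouse Ptgs2. Of the 8 windows only that of Ptgs2 held either motif, where 20.8% of all 32851 windows held TGACG and 7.15% held CACGTG. The Ptger2 and Cysltr2 windows held CCAAT, as did 37.4% of all windows, and the Ptgs2 window held the GC box GGGCGG, as did 35.7%. None of the 8 windows held the full response element TGACGTCA (1.79% of all windows), the AP-1 motif TGANTCA (7.81%), the NF-κB motif GGGANTNCC (3.95%), the EGR motif GCGNGGGCG (5.55%) or TATAAA (13.6%). A match describes letters in the window and no binding was measured.

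**Figure D1:**
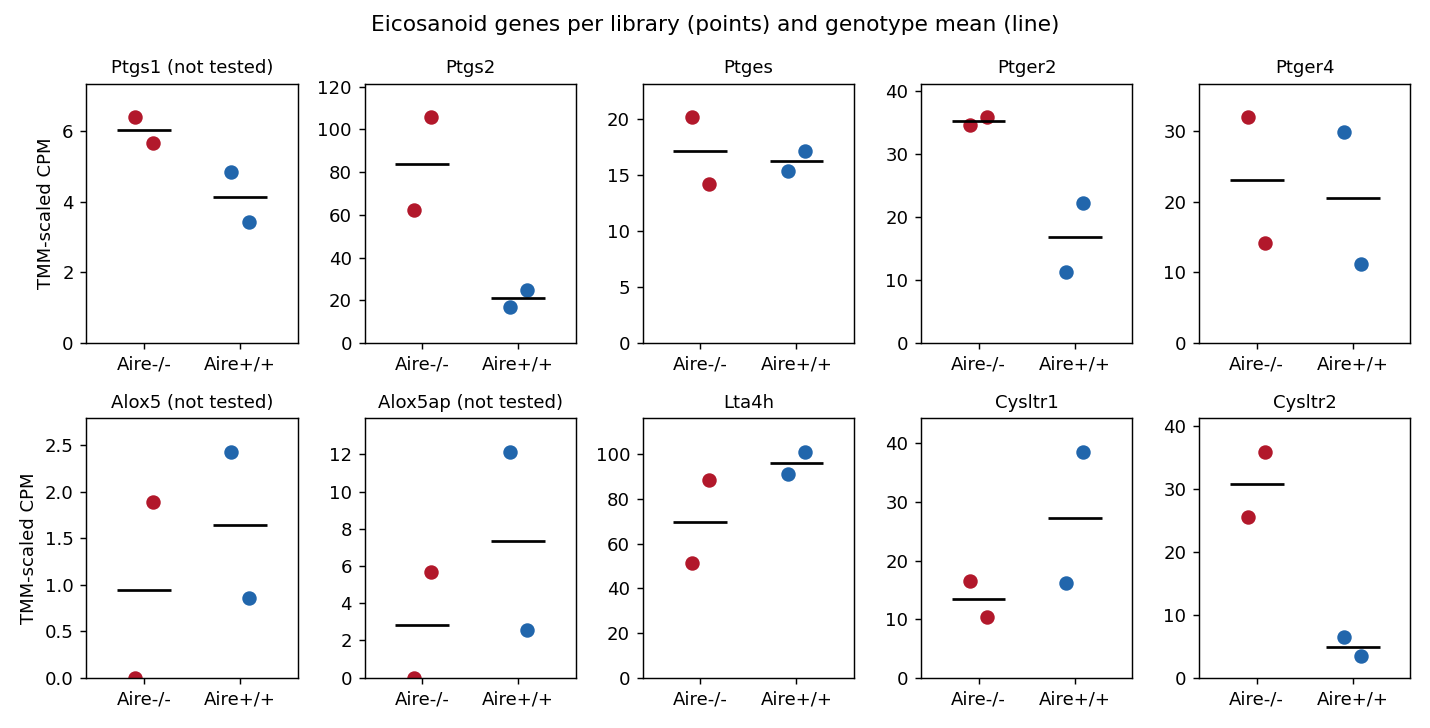
TMM-scaled CPM (counts scaled to library size) of each gene, with 1 point per library (replicate 1 to the left of replicate 2) and a line at the genotype mean; each panel has its own axis from 0. The Aire-/- points of Ptgs2, Ptger2 and Cysltr2 lie above both Aire+/+ points, and those of Ptger4 and Ptges overlap them.

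Among the prostaglandin enzymes, Ptgs2, the inducible cyclooxygenase of inflammation and receptor signalling, lies on chromosome 1 (150100031 to 150108227, GRCm38, ENSMUSG00000032487) and overlaps no other annotated gene. It had 68 and 112 counts in the Aire-/- samples, against 21 and 29 in the Aire+/+ samples. Both Aire-/- values lie above both Aire+/+ values, and the lower Aire-/- value is over 2 times the higher Aire+/+ value. The means were 83.9 ± 30.8 CPM in Aire-/- cells and 20.9 ± 5.55 CPM in Aire+/+ cells (SD, n = 2 each), a fitted log2 fold change of 2.00 (SE 0.37). In bulk libraries, fewer cells that carry a transcript and less of it per cell cannot be told apart. The ratio of summed counts scaled to library size was 4.02, with an exact 95% interval of 2.92 to 5.61. That interval, like the others of this kind here, covers counting error only.

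Ptgs1, the cyclooxygenase made by many cells at rest and abundant in platelets (chromosome 2, 36230426 to 36252272), had 7 and 6 counts in the Aire-/- samples, against 6 and 4 in the Aire+/+ samples. On the CPM scale both Aire-/- values are the higher, but the counts are too few to test, and the ratio of 1.45 has a counting interval of 0.588 to 3.70. Within a library the ratio of 2 genes does not depend on the scaling between libraries. Per length of transcript, Ptgs2 stood 6.25 and 12.0 times as high as Ptgs1 in the Aire-/- samples, against 2.25 and 4.67 times in the Aire+/+ samples. The inducible enzyme was thus the higher of the pair in all 4 libraries. Ptges, the inducible prostaglandin E synthase that often works beside Ptgs2 (chromosome 2, 30889471 to 30929863), had 22 and 15 counts in the Aire-/- samples and 19 and 20 in the Aire+/+ samples. The groups overlap, with means of 17.1 ± 4.21 CPM in Aire-/- cells and 16.2 ± 1.24 CPM in Aire+/+ cells (SD, n = 2 each), with a log2 fold change of 0.08 (SE 0.49) that ran from -0.19 to 0.30 as each library was left out.

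For the prostaglandin E2 receptors, the groups lay apart for Ptger2 and overlapped for Ptger4, and whether the 2 genes differ in this was not tested. Ptger2, encoding EP2 (chromosome 14, 44988195 to 45003820), had 38 and 38 counts in the Aire-/- samples, against 14 and 26 in the Aire+/+ samples. The Aire-/- samples were nearly equal and both above the Aire+/+ pair, with means of 35.3 ± 0.79 CPM in Aire-/- cells and 16.8 ± 7.73 CPM in Aire+/+ cells (SD, n = 2 each), a log2 fold change of 1.07 (SE 0.43). The ratio of summed counts was 2.12, with a counting interval of 1.43 to 3.19. Ptger4, encoding EP4 (chromosome 15, 5206661 to 5244187), had 35 and 15 counts in the Aire-/- samples and 37 and 13 in the Aire+/+ samples. Replicate 1 was the higher library in both genotypes, and the groups overlap throughout, with means of 23.1 ± 12.6 CPM in Aire-/- cells and 20.5 ± 13.3 CPM in Aire+/+ cells (SD, n = 2 each). Its log2 fold change of 0.16 (SE 0.55) was 1.04 once Aire+/+ replicate 1 was left out, and turned to -0.53 or -0.38 when Aire-/- replicate 1 or Aire+/+ replicate 2 was. Per length, Ptger2 stood 1.11 and 2.59 times as high as Ptger4 in the Aire-/- samples, against 0.387 and 2.05 times in the Aire+/+ samples, which overlap. Transcripts annotated on the opposite strand overlap exons of both genes, Gm49364 and Gm17173 for Ptger2 and Ttc33 and Gm15937 for Ptger4, and these counts do not tell the strands apart.

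The leukotriene enzymes were low but for Lta4h. Alox5, the 5-lipoxygenase of myeloid and mast cells (chromosome 6, 116410077 to 116461178), had 0 and 2 counts in the Aire-/- samples, against 3 and 1 in the Aire+/+ samples. Alox5ap, which encodes the membrane protein that presents arachidonic acid to it (chromosome 5, 149264767 to 149288153), had 0 and 6 counts in the Aire-/- samples, against 15 and 3 in the Aire+/+ samples. A count of 0 allows up to 3 counts, or 2.74 CPM, in Aire-/- replicate 1. The groups overlap for both genes and neither was tested. The Alox5ap ratio of 0.372 has a counting interval of 0.121 to 0.979, and the Aire+/+ samples alone stood at 12.1 and 2.57 CPM. Lta4h, the hydrolase that makes leukotriene B4 and is present in many cell types (chromosome 10, 93453411 to 93484875), had 56 and 94 counts in the Aire-/- samples, against 113 and 118 in the Aire+/+ samples. Both Aire-/- values are the lower, with means of 69.9 ± 26.5 CPM in Aire-/- cells and 96.1 ± 6.82 CPM in Aire+/+ cells (SD, n = 2 each), with a log2 fold change of -0.46 (SE 0.29). Without Aire-/- replicate 1 the fitted value was -0.11, and without Aire-/- replicate 2 it was -0.91.

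The cysteinyl leukotriene receptors had fitted values of opposite sign, with groups that lay apart for Cysltr2 and overlapped for Cysltr1. Cysltr2 (chromosome 14, 73025603 to 73049114), whose receptor binds leukotrienes C4 and D4, had 28 and 38 counts in the Aire-/- samples, against 8 and 4 in the Aire+/+ samples. The groups lie far apart, with means of 30.7 ± 7.25 CPM in Aire-/- cells and 4.94 ± 2.15 CPM in Aire+/+ cells (SD, n = 2 each), a log2 fold change of 2.60 (SE 0.55). The ratio of summed counts was 6.14, with a counting interval of 3.29 to 12.5. Cysltr2 passed the filter on low counts through its Aire-/- samples alone, so its place among the tested genes already rests on the difference. Cysltr1 (chromosome X, 106574346 to 106603679), the high-affinity leukotriene D4 receptor and the target of montelukast, had 18 and 11 counts in the Aire-/- samples, against 20 and 45 in the Aire+/+ samples. The groups overlap by a little, with Aire-/- replicate 1 at 16.4 CPM and Aire+/+ replicate 1 at 16.2 CPM, and the means were 13.4 ± 4.29 CPM in Aire-/- cells and 27.3 ± 15.8 CPM in Aire+/+ cells (SD, n = 2 each). Its log2 fold change of -1.01 (SE 0.53) was -0.27 without Aire+/+ replicate 2, the 1 library in which Cysltr1 was high. Per length, Cysltr2 stood 4.54 and 10.1 times as high as Cysltr1 in the Aire-/- samples, against 1.17 and 0.26 times in the Aire+/+ samples.

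**Figure D2:**
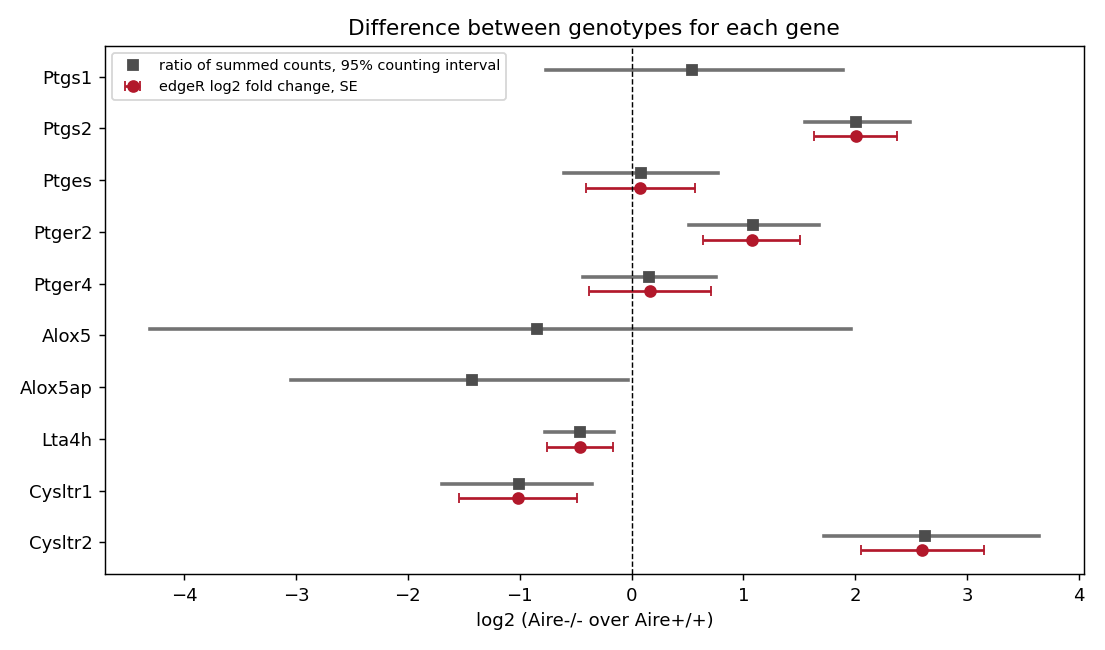
Log2 ratio of Aire-/- over Aire+/+ for each gene. Grey squares are ratios of summed counts with exact 95% counting intervals, and red circles are edgeR log2 fold changes with their SE for the 7 genes tested. Cysltr2 (2.60), Ptgs2 (2.00) and Ptger2 (1.07) lie to the right and Cysltr1 (-1.01) and Lta4h (-0.46) to the left.

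Across the 10 genes, 7 passed the filter on low counts and were tested with the rest of the table by edgeR's quasi-likelihood test. None of the 7 was called at an adjusted p under 0.05, where 0.0204% of the 9783 genes tested were called. DESeq2 and limma-voom also called 0 of them. At an unadjusted p under 0.05 there were 3, Ptgs2, Ptger2 and Cysltr2, all higher, against 5.57% of all genes. Both Aire-/- samples lay above both Aire+/+ samples for the same 3 genes, against 17.1% of all genes, and below them for 1, Lta4h, against 17.3%. Nothing is read from these counts, since the genes were chosen on this contrast. With no filter on low counts, Ptgs2 and Cysltr2 were called, where 47 of 20402 genes were called over the table, against 2 of 9783 with it. The log2 fold change of Ptgs2 was 2.34 without Aire-/- replicate 1 and 2.29 without Aire+/+ replicate 2.

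Scaled by T cell receptor content, Ptgs2, Cysltr2 and Ptger2 stayed higher in both Aire-/- samples, though the fits were less precise. Summed counts of the CD3 chains Cd3d, Cd3e, Cd3g and Cd247 were 1522 and 1595 in the Aire-/- samples, against 1242 and 1791 in the Aire+/+ samples. Per 1000 of these counts, Ptgs2 stood at 44.7 and 70.2 in the Aire-/- samples, against 16.9 and 16.2 in the Aire+/+ samples. On the same scale Cysltr2 stood at 18.4 and 23.8 in Aire-/- samples, against 6.44 and 2.23 in Aire+/+ samples. Ptger2 stood at 24.97 and 23.8 in Aire-/- samples, against 11.3 and 14.5 in Aire+/+ samples, so that none of the 3 overlapped. This scaling moved the median of all genes to -0.24 from 0.01 on the log2 scale, a shift that every gene shares. The fitted values became 1.79 (SE 0.52) for Ptgs2, 2.33 (SE 0.69) for Cysltr2 and 0.91 (SE 0.56) for Ptger2. Each SE was larger than with TMM, and Ptger2 no longer stood at an unadjusted p under 0.05 by edgeR. The fitted values of Ptges (-0.14) and Ptger4 (-0.16) moved below 0 with the median of all genes.

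Levels can be compared between genes only per length of transcript. In CPM per kb of the longest transcript, Lta4h was the highest of the 10 over the 4 libraries, at a mean of 25.7. Ptgs2 (11.8), Cysltr2 (10.1), Ptger2 (7.06), Ptger4 (5.78), Ptges (4.57), Alox5ap (4.07) and Cysltr1 (3.96) followed on that scale, and then Ptgs1 (1.77) and Alox5 (0.361). Neighbours in this order overlapped in their range over libraries except Ptgs1 and Alox5. The order differed by genotype. In Aire-/- samples Lta4h (21.7 ± 8.22), Ptgs2 (18.8 ± 6.91) and Cysltr2 (17.4 ± 4.12) stood close together, with Ptger2 at 9.57 ± 0.216 CPM per kb (SD, n = 2). In Aire+/+ samples Lta4h (29.8 ± 2.12) stood apart, and Ptgs2 (4.69 ± 1.25), Ptger2 (4.55 ± 2.10) and Cysltr2 (2.81 ± 1.22) lay among the others (CPM per kb, SD, n = 2). Among 19368 genes with a count and an annotated length, mean levels ran from the percentile 17.1 for Alox5 to 88.6 for Lta4h, with Ptgs2 at 77.4 and Cysltr2 at 74.9.

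**Figure D3:**
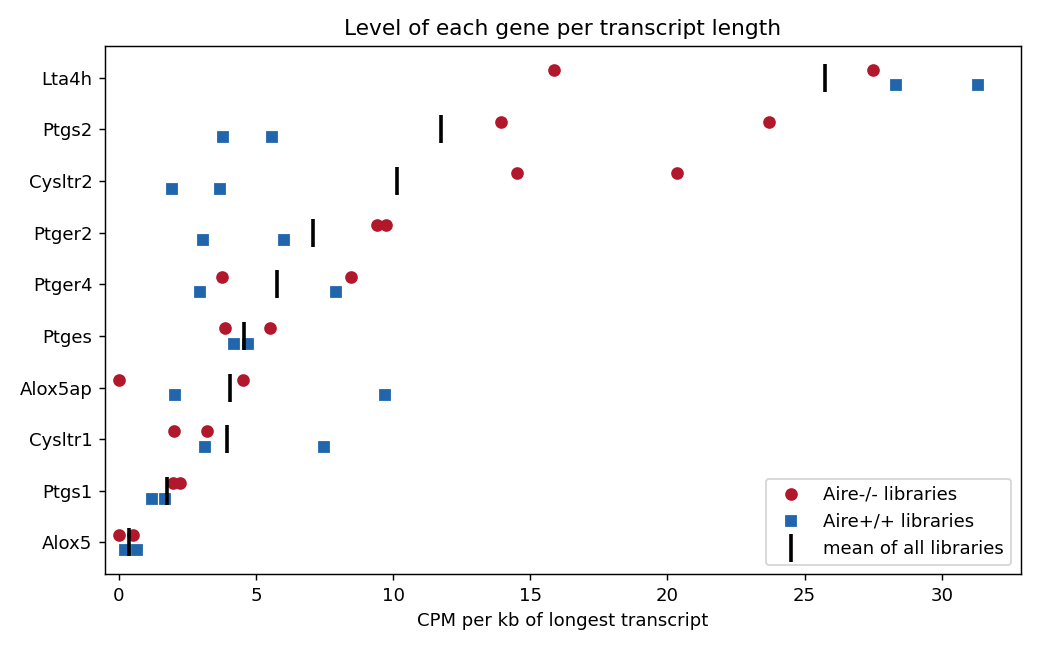
CPM per kb of the longest annotated transcript for each gene and library, ordered by the mean of all 4 libraries. Lta4h is the highest, and the Aire-/- points of Ptgs2 and Cysltr2 reach 23.7 and 20.4, against at most 5.57 and 3.67 in Aire+/+ samples.

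Transcripts of the 10 genes share 0 stretches of 31 bases with each other, and between 0% and 0.745% of such stretches with transcripts of any other gene on the same strand. A read of that length or longer therefore cannot match both genes of a paralogue pair exactly. On the opposite strand, Gm43621 overlaps exons of Ptgs1 and Gm19719 those of Alox5ap, and their reads may be counted there. No annotated gene overlaps Cysltr2, but 141 of its 2953 distinct stretches match transcripts such as Gm45186 and Gcsh on the opposite strand. Reads of those stretches may not come from Cysltr2.

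The rest of the pathway was read from 6 lists of 77 genes, of which 41 passed the filter. By edgeR 0 were called higher and 0 lower at an adjusted p under 0.05, and DESeq2 and limma-voom called 0. At an unadjusted p under 0.05 there was 1 gene higher and 0 lower, beside 5.57% of all genes tested in either direction. The median log2 fold change of the 41 was 0.12 with 24 above 0, beside 0.01 for all genes tested, and with CD3 scaling, which lowers all genes together, 13 of the 41 lay above 0. The genotypes did not overlap in 6 genes that were higher in Aire-/- samples and 9 that were lower, beside 17.1% and 17.3% of all genes.

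Genes of prostaglandin synthesis, breakdown and transport had 6 of 17 members tested, 3 above 0 and 3 below. Ptges3, the cytosolic prostaglandin E synthase that is also the chaperone p23, stood at 55.1 ± 31.4 CPM in Aire-/- samples, against 50.3 ± 0.268 CPM in Aire+/+ samples (SD, n = 2 each). Hpgds, the haematopoietic prostaglandin D synthase, had 17 and 18 counts in Aire-/- samples, against 26 and 37 in Aire+/+ samples, which do not overlap, and a log2 fold change of -0.69 (SE 0.44) that did not pass. Ptgr2, a prostaglandin reductase, stood at -0.11 and Abcc4, an exporter of prostaglandins, at -0.32 on the same scale. Pla2g4a, the phospholipase that frees arachidonic acid and is named here on its counts, had 8 and 3 counts in Aire-/- samples, against 7 and 5 in Aire+/+ samples. Of the other prostanoid receptors 4 of 7 were tested, with log2 fold changes from -0.02 to 0.54. The prostaglandin D2 receptors Ptgdr (-0.02) and Ptgdr2 (0.16) and the F receptor Ptgfr (0.54) had 8 to 17 counts per library.

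Of 16 genes of leukotriene synthesis and other lipoxygenases 7 were tested, 3 above 0 and 4 below. Gpx4, a peroxidase of lipid hydroperoxides, stood at 124 ± 13.3 CPM in Aire-/- samples, against 137 ± 6.11 CPM in Aire+/+ samples (SD, n = 2 each). Abcc1, the exporter of leukotriene C4, had a log2 fold change of 0.33 and Cotl1, which binds 5-lipoxygenase, one of -0.12, and neither passed. Cyp4f18, which breaks down leukotriene B4 in mice, had 118 and 54 counts in Aire-/- samples, against 167 and 72 in Aire+/+ samples, higher in replicate 1 of both genotypes as Ptger4 was. Ltc4s, the synthase of leukotriene C4, also named on its counts, had 0 and 1 counts in Aire-/- samples, against 0 and 0 in Aire+/+ samples. Among receptors, only Ltb4r1 of 6 was tested. It encodes BLT1, the high-affinity leukotriene B4 receptor, and had 178 and 279 counts in Aire-/- samples, against 192 and 234 in Aire+/+ samples, which overlap (log2 fold change 0.26, SE 0.26). Oxgr1, a receptor for leukotriene E4, had 3 and 6 counts in Aire-/- samples, against 0 and 2 in Aire+/+ samples, while Fpr2 and Cmklr1 had 0 to 5 in any library.

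Below EP2 and EP4, the cyclic AMP relay had 14 of 22 genes tested, 8 above 0 and 6 below, with a median of 0.13. Creb1, the factor that binds cyclic AMP response elements, had 214 and 140 counts in Aire-/- samples, against 145 and 125 in Aire+/+ samples, a log2 fold change of 0.55 (SE 0.25) that did not pass over all genes (adjusted p = 0.89, edgeR). It was the 1 gene of the lists at an unadjusted p under 0.05, where 5.57% of all genes tested stood. The kinase subunits Prkar1a (0.31) and Prkacb (0.24), the factor Crem (-0.22) and the phosphodiesterase Pde4b (-0.19) did not pass. All 9 genes whose proteins bind the Ptgs2 messenger or related AU-rich messengers were tested, 6 above 0 and 3 below, with a median of 0.20. The most abundant were Celf2 (0.20), Zfp36l1 (0.11), Zfp36l2 (0.20) and Tia1 (0.29). Zfp36, which speeds decay of AU-rich messengers and is again named on its values, had 51 and 30 counts in Aire-/- samples, against 71 and 56 in Aire+/+ samples (-0.49, SE 0.35).

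**Figure D4:**
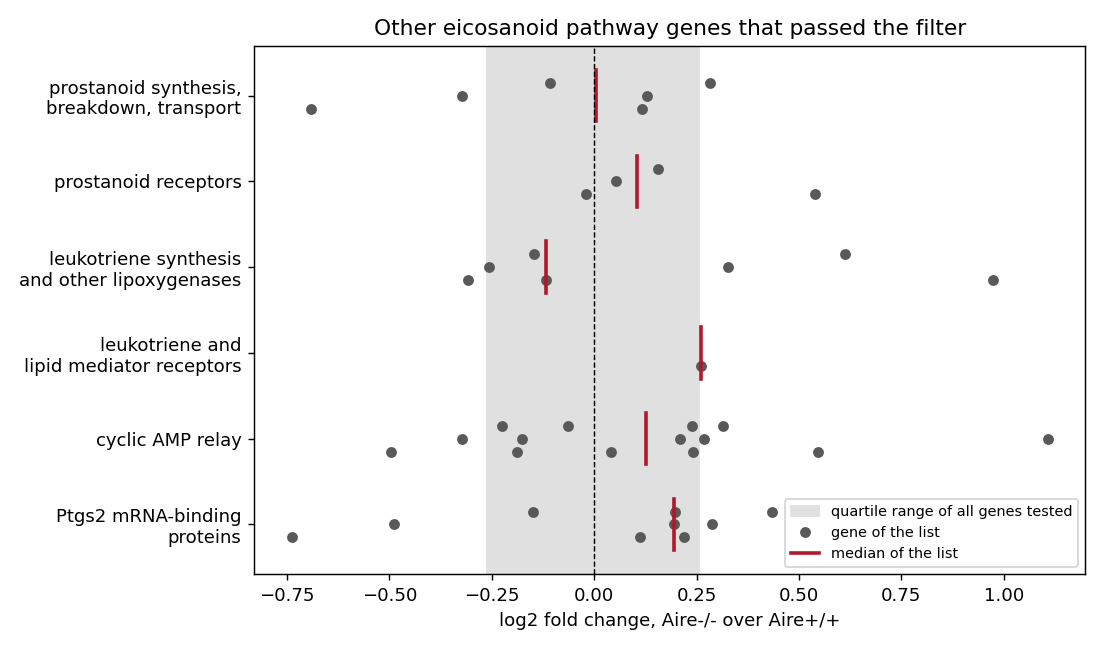
EdgeR log2 fold changes (Aire-/- over Aire+/+) of the 41 tested genes in 6 pathway lists, 1 point per gene, with a red line at each list's median and a grey band over the quartile range of all genes tested (-0.26 to 0.26). The list medians lie between -0.12 and 0.26, and the lowest and highest genes are at -0.74 and 1.11.

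Cells other than γδ T cells carry many of these genes, and their markers differed between libraries. Aire itself had 0 counts in all 4 libraries, so it checks no label. Totals were 1106891 to 1265239 counts per library, with 16283 to 17423 genes detected. In the interleukin-17 γδ T cell list of 10 genes most counts were of Cd163l1. The list summed to 6585 and 7207 counts in the Aire-/- samples, against 5107 and 6536 in the Aire+/+ samples. All 10 means were higher in Aire-/-. B cell markers, which the gate should leave out, summed to 2997 and 2275 counts in Aire-/- samples, against 5493 and 3244 in Aire+/+ samples, with all 10 means lower in Aire-/-. Macrophage and monocyte markers, mostly Apoe and Lyz2, summed to 142 and 178 counts in Aire-/- samples, against 591 and 179 in Aire+/+ samples. In CPM these sums overlapped, at 129.7 and 167.8 in Aire-/- samples, against 477.6 and 153.1 in Aire+/+ samples. Only Aire+/+ replicate 1 stood apart. Of these 12 markers 10 had lower means in Aire-/-, with Cd14 at 0 in both Aire-/- samples. Mast cell and basophil markers summed to 22 and 24 counts in Aire-/- samples, against 61 and 38 in Aire+/+ samples, with 6 of 10 lower and Tpsb2 at 0 throughout. Dendritic cell markers summed to 79 and 52 counts in Aire-/- samples, against 30 and 50 in Aire+/+ samples. Most were of Xcr1, with 45 and 27 in Aire-/- samples, against 19 and 26 in Aire+/+ samples. For 7 of the 8 dendritic cell markers the mean was higher in Aire-/-. Siglech (5.54 against 5.49 CPM) and Cd209a (0.94 against 0.83 CPM) were so by little. Neutrophil markers, mostly Cxcr2, summed to 127 and 80 counts in Aire-/- samples, against 81 and 105 in Aire+/+ samples, which overlap. Of the 8 markers 6 were higher, with Camp at 0 throughout and S100a8 at 0 to 2. Eosinophil markers, mostly Il5ra, summed to 88 and 69 counts in Aire-/- samples, against 101 and 101 in Aire+/+ samples, with Prg2 at 0 throughout. Platelet and red cell markers summed to 17 and 15 counts in Aire-/- samples, against 52 and 26 in Aire+/+ samples, with 4 of 7 lower, Hbb-b1 and Hba-a1 at 0 throughout and Gp1ba at 0 in both Aire-/- samples. Endothelial markers, mostly Pecam1, summed to 136 and 127 counts in Aire-/- samples, against 186 and 234 in Aire+/+ samples, with 5 of 6 lower. The sums overlapped between genotypes for ILC2 markers (117.8 and 185.8 CPM in Aire-/- samples, against 105.9 and 163.4 in Aire+/+ samples), with Il13 at 0 throughout. They also overlapped for epithelial markers (14.6 and 13.2 CPM in Aire-/- samples, against 19.4 and 13.7 in Aire+/+ samples) and for fibroblast markers (26.5 and 12.3 CPM in Aire-/- samples, against 14.5 and 29.1 in Aire+/+ samples). The part of these cells in the differences of Ptgs1, Ptgs2, Ptger2, Cysltr2, Cysltr1, Lta4h and Alox5ap was not tested.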

How the data were processed

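RNA-seq of 4 libraries was deposited as a single matrix of raw counts, with gene symbols in rows and libraries in columns, per the file headers, with no sign of normalization by the authors. The submitters' processing notes name TopHat2 2.0.10, Cufflinks 2.2.1 and build mm10 without saying what each did. How reads were counted, on which annotation and with which strand setting is not given in the sources used here. Reads from Smart-Seq2 carry no molecular identifiers, so amplified copies of a molecule are counted as separate reads. Intervals and limits cover the counting error of reads only and may be too narrow for molecules.

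Groups follow the genotype in the titles. edgeR 4.0.16 in R 4.3.3 was run on all 4 libraries and all genes, with TMM and with filterByExpr at a minimum count of 10 and a minimum total of 15. Genotype was the single term of the quasi-likelihood F test, and p-values were adjusted by Benjamini-Hochberg over the 9783 genes tested, with calls at 0.05. CPM divides by the TMM-scaled total of tested genes. Log2 fold changes put Aire-/- over Aire+/+, and the SE of each is its size over the square root of F. Count-ratio intervals are exact, at 95%. Transcript lengths and gene positions come from GENCODE M21 (GRCm38, the assembly of mm10) and start-site windows from RefSeq.

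The genes and lists were chosen with earlier results of these data known. From each pathway list the text names the 4 genes highest in mean CPM and those at an unadjusted p under 0.05. Pla2g4a, Ltc4s and Zfp36 were added to these after their values were seen. A receptor gene that this rule names is not reported here. Alternatives were DESeq2 1.42.0 (its test, and its size factors), limma-voom (limma 3.58.1), upper-quartile and CD3 scaling, no filter, a filter of 10 CPM in 2 libraries, an adjusted p of 0.1, a replicate block and each library left out. Figures used matplotlib 3.10.9.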

Additional observations from a re-analysis of the deposited data

How the results depend on the processing

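With 2 libraries a genotype of 1106891 to 1265239 counts, genes of a few counts were not tested. Where a library is left out, the lone one is taken to vary as much as those of the other genotype do. Calls over the whole table were 2, and became 7 with CD3 scaling, 1 with limma-voom, 47 with no filter on low counts and 12 to 63 with each library left out. The replicate block gave 6 calls over the table and 0 among the 10 genes. It is a block of numbers only, since nothing says that they pair the libraries, and deviations of same-numbered libraries correlated at -0.08 over 9783 genes. Of the 10 genes 0 were called, 2 with no filter on low counts (Ptgs2 and Cysltr2) and 0 to 1 with each library left out, the 1 being Ptgs2 without Aire-/- replicate 1 or Aire+/+ replicate 2. The cause was not tested. Other pathway genes had 0 calls under every alternative run. Log2 fold changes ran from 1.57 to 2.34 for Ptgs2, 2.22 to 3.12 for Cysltr2 and 0.65 to 1.63 for Ptger2 over the libraries left out. Dividing by mean in place of longest transcript length gave Ptges rank 4 and Ptger4 rank 8 of 10 in level.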

Other observations

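The tested genes nearest in profile to Ptgs2 and Cysltr2 over the 4 libraries were genes of low counts. By the root mean square difference of centred log2 CPM, the nearest to Ptgs2 were Tada2a, a subunit of histone acetyltransferase complexes (0.21), Zfp324 (0.24) and Rd3 (0.28). The nearest to Cysltr2 were Cacna1s, a calcium channel subunit (0.19), 6530402F18Rik (0.33) and Xylt2, a xylosyltransferase (0.34). Within 0.25 lay 2 genes for Ptgs2 and 1 for Cysltr2, and how many lie so near other genes was not counted. All 6 have at most 22 counts in any library and at most 7 in any Aire+/+ library. They passed the filter on low counts through their Aire-/- samples alone, so their likeness rests in part on the filter. Tada2a had 12 and 22 counts in Aire-/- samples, against 3 and 7 in Aire+/+ samples, and Cacna1s had 10 and 12 in Aire-/- samples, against 2 and 1 in Aire+/+ samples. At such counts a profile over 4 libraries is weakly set.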
